A study of Homo sapiens with 15 samples.

Results

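Chromatin modifiers and remodelling factors are the proteins that write, erase and read marks on histone tails or move nucleosomes along DNA. Their RNA was measured in HEK293FT, an established line of human embryonic kidney origin that carries the SV40 large T antigen and grows fast. The genes were chosen by name: protein-coding rows of the authors' deposited table whose symbol starts with KDM, HDAC, SIRT, ARID, CHD, BRD, CBX, PHF or KAT and a digit, or with SETD, MLL or SMARC. The rule finds 58 rows with 56 different symbols among 11230 listed rows, of which 7447 are protein-coding. The symbols KAT6A and PHF6 have 2 rows each.

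Each of the 5 groups had 3 polyA RNA libraries, biological replicates per the labels. All cells, control included, were given plasmids for dCas9-VP64 and for the activator MS2-p65-HSF1, with a pool of 5 guides, and selected with puromycin, so every comparison is between transfected and selected cells 48 hours after transfection. The control pool was non-targeting, and the other pools were designed 50 to 450 bp upstream of the start of a TrEx long non-coding RNA, a class expressed transiently as cortical neurons form. The groups are named by their titles: trex0108 (target label TrEx108), trex4039 (TrEx4039), trex5008 (TrEx8168) and trex8168 (TrEx5008). For the last pair title and target label carry each other's number, and the conflict was not settled. The model is 1 line with transient expression of the activator, so the results describe this line only.

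Histone acetylation is laid down by acetyltransferases such as the KAT family and removed by HDAC and SIRT deacetylases. Lysine methylation is written by SET-domain enzymes, removed by KDM demethylases and read by chromodomain (CBX) and PHD-finger (PHF) proteins, while bromodomain (BRD) proteins read acetylation. SMARC and CHD genes encode the ATP-driven motors and partner subunits that slide or evict nucleosomes, and ARID proteins include DNA-binding subunits of such complexes. In the developing cortex these complexes are known for setting when progenitor and neuronal genes can be transcribed.

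A value here is a group mean of normalised counts or a log2 fold change against control, both as deposited. The fold changes are shrunken: for called rows none exceeds, in size, the log2 ratio of the group means with a pseudocount of 1. A gene was called where the deposited adjusted p was under 0.05. The values of single libraries were not used, so no SD stands beside a mean, depth is unknown, and all 4 comparisons share the same control libraries. A gene called in one comparison and not in another is not shown to differ between them, since differences between target groups were not tested. Of the 58 rows 33 overlap another listed row, which leaves some of their reads uncertain, also where a gene is named without this limit. In bulk RNA, fewer cells of a type and less RNA per cell cannot be told apart. The kidney lineage transcription factor genes LHX1, PAX2 and WT1 were listed, with control means from 368.6 to 449.9 in the authors' deposited table. Of 4 neurofilament and related genes, which HEK293 lines are known to express, 3 were listed (INA, NEFH and NEFM), with control means from 438.3 to 5358 in the authors' deposited table. Of 4 fibroblast markers LUM and COL1A2 were listed, with control means of 205.8 and 26.0 in the authors' deposited table. In trex4039 the authors' deposited table gives 293.7 for LUM (called as higher) and 2.81 for COL1A2 (lower). Of the kidney and neurofilament genes named, INA was called as higher there and LHX1, PAX2 and NEFM as lower. In trex5008 LHX1 and PAX2 were lower, and in trex8168 LHX1 was lower (-0.27). The part of these shifts in the results was not tested. Markers of blood cells and hepatocytes were not analysed here.

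The coding sequences of 4 ATPase genes are shown first, because they let a reader see how genes for related proteins differ in base composition, a property that moved with the direction of the calls. In trex4039 the first pair was called in opposite directions and the second pair in the same direction. SMARCA4 (BRG1) and SMARCA2 (BRM) are the alternative motors of the SWI/SNF complexes. SMARCA5 (SNF2H) and SMARCA1 (SNF2L) are the motors of the ISWI complexes. For each pair the longest stretch that codes for the same residues and lies inside 1 exon of each gene was taken from GENCODE 29 transcripts (GRCh38, 5′ to 3′ on the coding strand). Capitals mark the bases that differ within a pair.
SMARCA4: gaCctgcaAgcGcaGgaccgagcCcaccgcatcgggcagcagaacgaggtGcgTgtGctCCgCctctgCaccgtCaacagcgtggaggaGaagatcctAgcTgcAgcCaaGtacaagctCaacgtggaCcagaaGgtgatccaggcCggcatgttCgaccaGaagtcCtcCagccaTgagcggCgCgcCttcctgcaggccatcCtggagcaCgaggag
SMARCA2: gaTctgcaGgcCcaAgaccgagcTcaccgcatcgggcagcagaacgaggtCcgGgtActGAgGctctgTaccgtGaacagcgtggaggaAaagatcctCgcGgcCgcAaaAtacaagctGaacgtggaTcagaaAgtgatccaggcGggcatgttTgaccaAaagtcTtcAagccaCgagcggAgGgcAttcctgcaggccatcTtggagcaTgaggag
SMARCA5: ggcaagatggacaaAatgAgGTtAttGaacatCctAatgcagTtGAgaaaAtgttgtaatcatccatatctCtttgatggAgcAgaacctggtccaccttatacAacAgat
SMARCA1: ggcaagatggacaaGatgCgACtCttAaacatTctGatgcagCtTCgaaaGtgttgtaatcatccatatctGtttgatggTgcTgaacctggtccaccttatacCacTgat
The SMARCA4 stretch lies at chr19:11033290-11033508 on the plus strand, in exon 29 of 37, and the SMARCA2 stretch at chr9:2115822-2116040 on the plus strand, in exon 25 of 34. Both cover 73 codons for the same residues, and 33 of 219 bases differ, 30 of them at the last base of a codon. GC content is 63.5% in the SMARCA4 stretch and 57.5% in the SMARCA2 stretch, and at the last base of codons 90.4% and 76.7%. The SMARCA5 stretch lies at chr4:143536498-143536608 on the plus strand and the SMARCA1 stretch at chrX:129497915-129498025 on the minus strand, each in exon 11. They cover 37 codons, 17 of 111 bases differ, and GC content is 38.7% and 43.2%. Over the whole transcript GC content was 59.9% for SMARCA4, 48.7% for SMARCA2, 39.0% for SMARCA5 and 41.1% for SMARCA1.

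Called chromatin genes were many in trex4039 and trex5008, few in trex8168 and almost none in trex0108, and apart from trex5008, where both shares were above those of all listed protein-coding rows, the shares differed from the background by under 5 percentage points. In trex4039, 25 of 58 rows were higher and 20 lower in the authors' deposited table, beside 41.6% and 30.9% of all listed protein-coding rows with an adjusted p. In trex5008, 23 of 55 rows with an adjusted p were higher and 17 lower (41.8% and 30.9%), beside 32.4% and 24.6% in the authors' deposited table. The trex8168 comparison had 9 higher and 3 lower of 56, beside 16.6% and 4.57% in the authors' deposited table. In trex0108, 1 of 58 was higher and 0 lower by the authors' deposited adjusted p, beside 5.52% and 0.228%. The 0 rests on that adjusted p alone, since unadjusted p-values were not used here and no count test can be run on group means. The table raises these shares, because a row is listed only where the smallest of its 4 adjusted p is below 0.1.

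**Figure D1:**
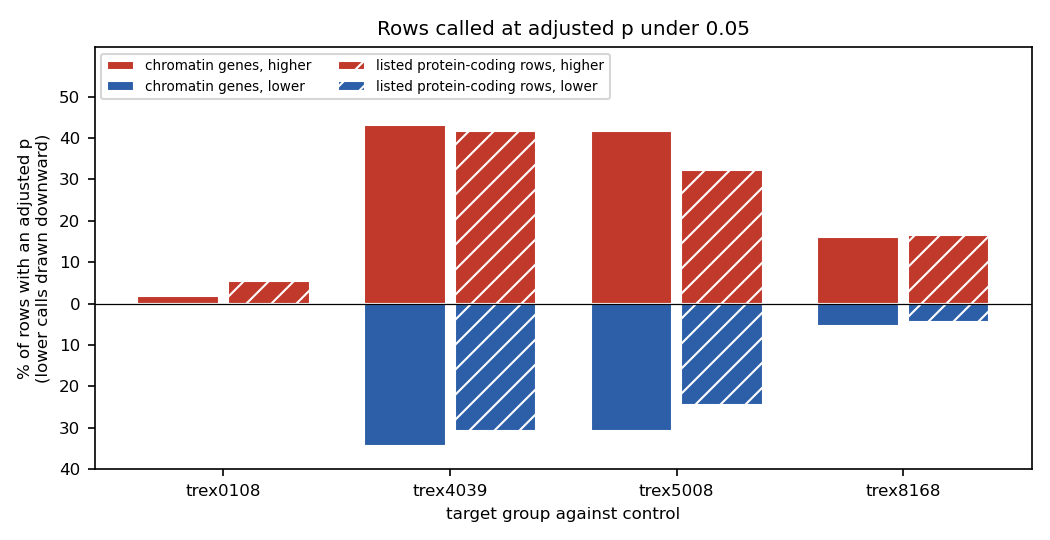
Share of rows with an adjusted p under 0.05, as a percentage of rows with an adjusted p, for the chromatin genes (plain bars) and all listed protein-coding rows (hatched bars), with higher calls upward and lower calls downward. In trex4039 the chromatin genes had 43.1% higher and 34.5% lower calls.

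The changes were small. Among called chromatin genes the median size was 0.27 on the log2 scale in trex4039, 0.21 in trex5008 and 0.19 in trex8168 in the authors' deposited table. The same medians over all called protein-coding rows were 0.30, 0.24 and 0.22. The highest and lowest values among the 58 rows were 0.47 for SIRT1 and -0.45 for PHF12, both from the trex4039 column of the authors' deposited table. The median over the 58 rows, called or not, was 0.020 in trex0108, 0.068 in trex4039, 0.082 in trex5008 and 0.034 in trex8168. Over all listed protein-coding rows it was 0.028, 0.085, 0.048 and 0.055. At the threshold used, 50 of the 58 rows (86.2%) were called in at least 1 comparison, beside 88% of all listed protein-coding rows. The other 8 were BRD3, CHD7, HDAC5, KDM1A, KDM4C, KDM8, PHF17 and SMARCD2. In trex4039 and trex5008 the direction of the calls moved with transcript GC content, both across and within families, and its part in the calls was not tested. With the GC trend of all listed protein-coding rows subtracted, 13 called values in trex4039 and 10 in trex5008 turned sign.

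**Figure D2:**
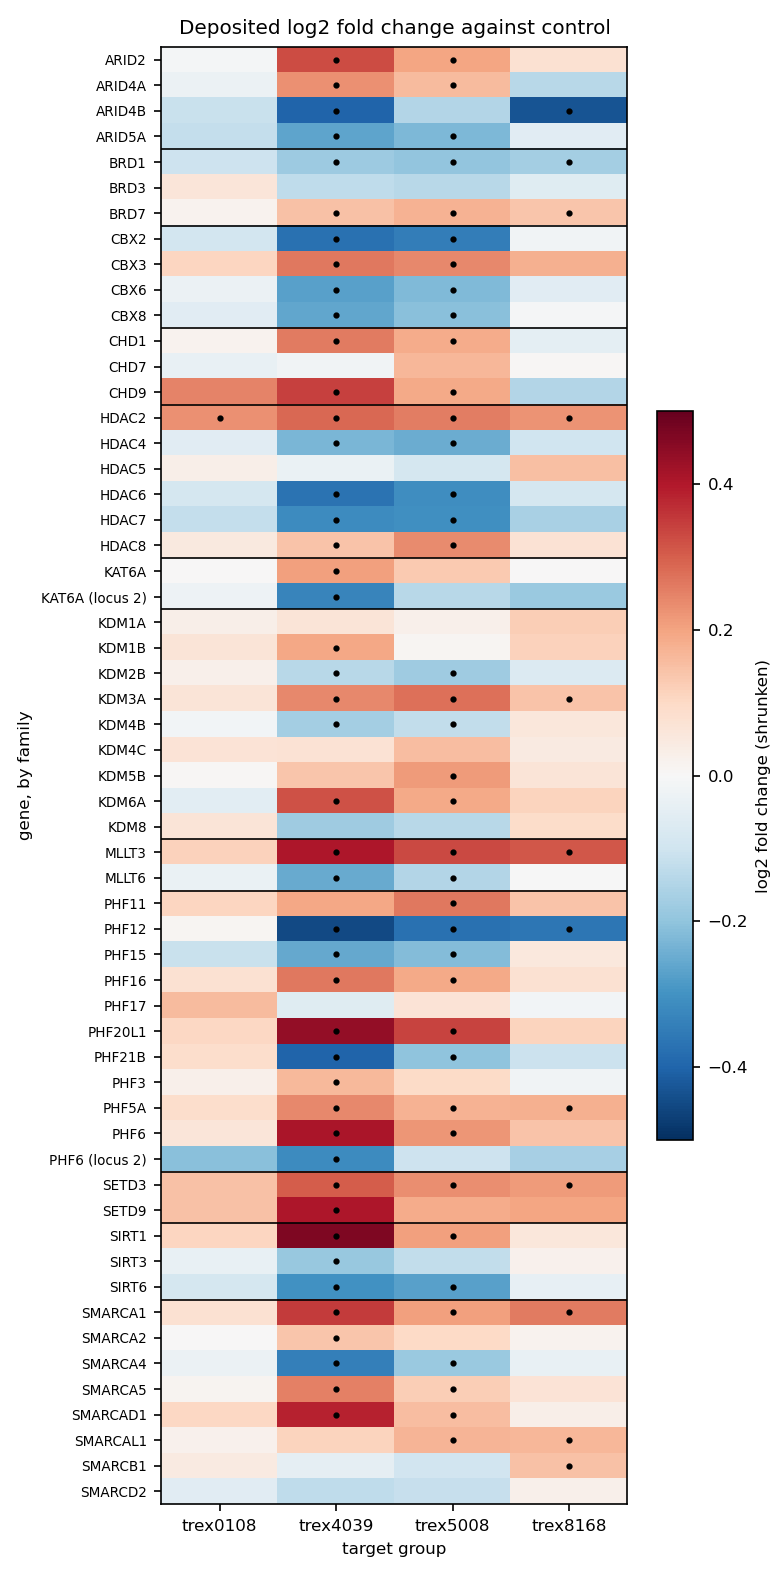
Deposited log2 fold change of the chromatin genes reported here (vertical axis, by family) in the 4 comparisons with control (horizontal axis), coloured from -0.5 to 0.5, with a dot where the adjusted p was under 0.05. HDAC2 carries a dot in all 4 columns, and most families hold both red and blue genes in trex4039 and trex5008.

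Among the histone deacetylases, HDAC2 was called as higher in every target group, while HDAC4, HDAC6 and HDAC7 were lower in trex4039 and trex5008. With the GC trend subtracted, HDAC2 stood at 0.16 in trex0108, -0.033 in trex4039, 0.047 in trex5008 and 0.15 in trex8168. HDAC2 (chromosome 6, 114251966 to 114332486, hg19) is a class I enzyme of the NuRD, SIN3 and CoREST complexes. Its mean was 9937 in control, 11727 in trex0108, 12227 in trex4039, 11963 in trex5008 and 11697 in trex8168 in the authors' deposited table. All 4 target means lay above control and within 117.7% to 123.1% of it. The log2 fold changes were 0.23, 0.29, 0.26 and 0.23 in that order, and the authors' deposited adjusted p were 0.00192, 1.77e-06, 4.16e-05 and 0.00165. HDAC2 was the one of the 58 rows called in trex0108, and the 4 comparisons share its control mean.

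HDAC8, the other listed class I gene, had means of 1596 in control, 1653 in trex0108, 1770 in trex4039, 1890 in trex5008 and 1679 in trex8168 in the authors' deposited table. It was called in trex4039 and trex5008, with log2 fold changes of 0.14 and 0.24. The class IIb gene HDAC6, whose product deacetylates tubulin in the cytoplasm, fell from a control mean of 2547 to 1947 in trex4039 and 2034 in trex5008 in the authors' deposited table. Its log2 fold changes were -0.37 and -0.31, and the authors' deposited adjusted p were 1.38e-09 and 1.29e-06. In trex0108 and trex8168 its means of 2389 and 2391 were not called. HDAC7, a class IIa enzyme that shuttles between nucleus and cytoplasm, fell in the same groups with -0.32 and -0.31, and HDAC4 with -0.23 and -0.25 in the authors' deposited table. HDAC5 of the same class was not called, with values from -0.089 to 0.15. The row of HDAC7 spans 289754 bp and overlaps those of RAPGEF3, RPAP3 and SLC48A1, so some of its reads are uncertain.

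The sirtuins, NAD-dependent deacetylases, went different ways in trex4039. After subtraction of the GC trend their values there were 0.18 for SIRT1, 0.018 for SIRT6 and 0.016 for SIRT3. SIRT1 is nuclear and acts on histones and transcription factors. Its mean was 2679 in control, 2903 in trex0108, 3761 in trex4039, 3111 in trex5008 and 2789 in trex8168 in the authors' deposited table. The trex4039 mean was 140.4% of control, the highest of any chromatin gene there, and the authors' deposited table gives a fold change of 0.47 on the log2 scale (adjusted p 4.76e-13). In trex5008 the fold change was 0.20 (the authors' deposited adjusted p, 0.00397). The row of SIRT1 spans 208269 bp and overlaps that of HERC4, so some of its reads are uncertain. SIRT6, which removes acetyl groups from histone H3 in the nucleus, fell from 843.0 in control to 672.3 in trex4039 and 689.9 in trex5008 in the authors' deposited table. The mitochondrial SIRT3 fell in trex4039 alone by the threshold, with -0.19; its value of -0.12 in trex5008 was not called, and the difference between these groups was not tested.

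In trex4039 and trex5008 CBX3, a gene of heterochromatin protein 1, rose and the Polycomb chromodomain genes CBX2, CBX6 and CBX8 fell. After subtraction of the GC trend CBX3 stood at -0.039 in trex4039 and 0.035 in trex5008. In the same order CBX2 stood at -0.12 and -0.14, CBX6 at -0.022 and -0.012, and CBX8 at -0.054 and -0.036. CBX3, whose product HP1 gamma binds methylated lysine 9 of histone H3, had means of 6744 in control, 7303 in trex0108, 8187 in trex4039, 8046 in trex5008 and 7705 in trex8168 in the authors' deposited table. It was called in trex4039 and trex5008 with 0.26 and 0.24, and its value of 0.18 in trex8168 had the authors' deposited adjusted p at 0.0661. A pseudogene of CBX3 is listed too and may share its reads. CBX2, CBX6 and CBX8 encode Polycomb repressive complex 1 subunits that bind methylated lysine 27. None of these genes was called in trex0108 or trex8168 by the authors' deposited adjusted p. CBX2 had means of 3351 in control, 3133 in trex0108, 2558 in trex4039, 2606 in trex5008 and 3308 in trex8168 in the authors' deposited table. Its fold changes were -0.37 and -0.35 in the middle pair, with adjusted p of 4.39e-09 and 1.58e-07. CBX6 went from 6138 to 5056 and 5242, and CBX8 from 688.0 to 565.7 and 588.4, in trex4039 and trex5008 of the authors' deposited table. The row of CBX2 (chromosome 17, 77751925 to 77854053, hg19) overlaps that of CBX8, and without the strand setting of the counting their reads cannot be fully told apart.

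**Figure D3:**
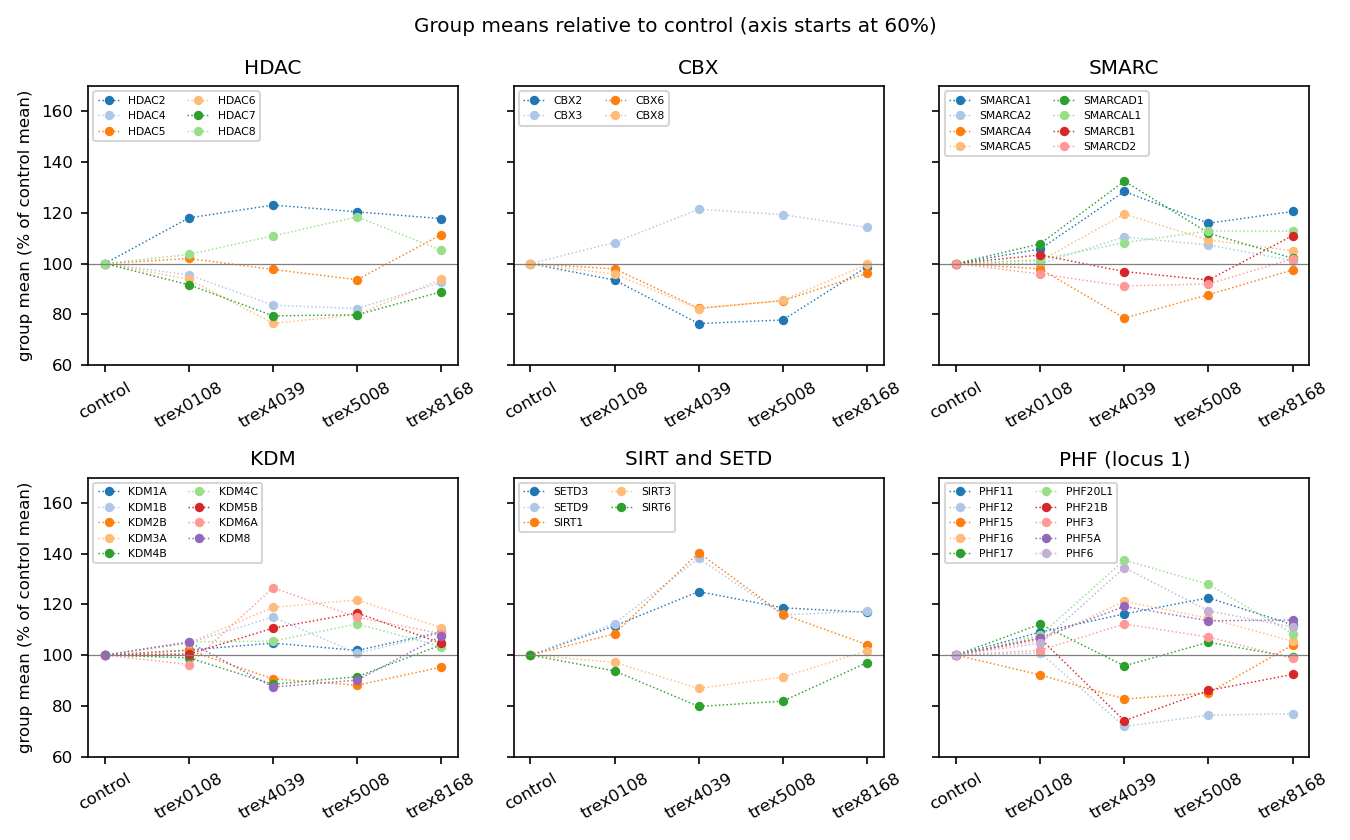
Group means as a percentage of the control mean (vertical axis, from 60%) in the 5 groups (horizontal axis), with 1 point per gene reported here and group; dotted lines join the points of a gene and imply no order. In the HDAC panel HDAC2 lies between 117.7% and 123.1% in the target groups, and in the CBX panel CBX3 alone lies above control in trex4039.

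Among nucleosome remodellers the ISWI motors rose and the SWI/SNF motor SMARCA4 fell in trex4039 and trex5008. With the GC trend subtracted, the ISWI gene SMARCA5 turned to -0.058 in trex4039 and -0.081 in trex5008, and SMARCA4 to 0.026 in trex5008. SMARCA4 (chromosome 19, 11071577 to 11197982, hg19) had means of 16384 in control, 16044 in trex0108, 12865 in trex4039, 14374 in trex5008 and 15975 in trex8168 in the authors' deposited table. The trex4039 mean was the lowest of the 5, at 78.5% of control, and the authors' deposited table gives it -0.34 on the log2 scale (adjusted p 5.66e-15). In trex5008 it was -0.18 with an adjusted p of 7.76e-05 (the authors' deposited table). Its paralogue SMARCA2, printed beside it above, had means of 1468 in control, 1467 in trex0108, 1622 in trex4039, 1575 in trex5008 and 1485 in trex8168 in the authors' deposited table. Only the trex4039 value was called, as higher, with 0.14 and an adjusted p of 0.0366 (the authors' deposited table). The sum of both was not tested.

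Other SWI/SNF subunits differed in direction. ARID2 and BRD7, which belong to the PBAF form, were higher in trex4039 with 0.33 and 0.15 and in trex5008 with 0.20 and 0.17 in the authors' deposited table. BRD7 was also called in trex8168, with 0.14; a pseudogene of it is listed and may share its reads. The core subunit SMARCB1 was called in trex8168 alone, rising from 7585 to 8422, with an adjusted p of 0.036 (the authors' deposited table). SMARCD2 was not called anywhere.

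SMARCA5 had means of 14705 in control, 14867 in trex0108, 17572 in trex4039, 16071 in trex5008 and 15445 in trex8168 in the authors' deposited table. It was called in trex4039 and trex5008, with 0.25 and 0.12. SMARCA1 went from 4076 in control to 5234 in trex4039, 4724 in trex5008 and 4913 in trex8168, each called, and to 4310 in trex0108, not called, in the authors' deposited table. Its fold changes where called were 0.35, 0.21 and 0.26, with adjusted p from 6.66e-10 to 0.000668. Its row spans 1516258 bp, the longest of the 58, so reads from elsewhere in that span may be counted in it. SMARCAD1, a remodeller that follows the replication fork, rose with 0.39 in trex4039 and 0.16 in trex5008, and SMARCAL1, which anneals DNA at stalled forks, with 0.17 in both trex5008 and trex8168 of the authors' deposited table.

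Of the CHD remodellers 3 were listed. CHD1, a motor linked to transcription elongation, went from 6361 in control to 7656 in trex4039 and 7261 in trex5008 in the authors' deposited table; on the log2 scale this was 0.26 and 0.18. CHD9 rose in the same groups with 0.34 and 0.19. Its value of 0.25 in trex0108 had the authors' deposited adjusted p at 0.0638 and was not called. After subtraction of the GC trend CHD1 stood at -0.064 in trex4039 and -0.026 in trex5008, and CHD9 at 0.030 and -0.017. CHD7 had an adjusted p of 0.0509 in trex5008, just above the threshold (the authors' deposited table).

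Of 9 lysine demethylases 3 were higher and 2 lower in trex4039, with the same counts in trex5008 (33.3% and 22.2%), beside 41.6% and 30.9% of all listed protein-coding rows in trex4039 and 32.4% and 24.6% in trex5008 of the authors' deposited table. KDM3A, a histone H3 lysine 9 demethylase, had means of 3229 in control, 3383 in trex0108, 3837 in trex4039, 3930 in trex5008 and 3576 in trex8168 in the authors' deposited table. It was called in all but trex0108, with log2 fold changes of 0.24, 0.28 and 0.14. KDM6A (UTX), which removes lysine 27 methylation, rose with 0.32 in trex4039 and 0.19 in trex5008 in the authors' deposited table. KDM4B, which acts on lysine 9 like KDM3A, fell with -0.17 and -0.12, and KDM2B, a lysine 36 demethylase that also recruits Polycomb complexes to CpG islands, with -0.14 and -0.18 in the authors' deposited table. Among lysine 4 demethylases KDM1B was called in trex4039 (0.19) and KDM5B in trex5008 (0.21). KDM1A (LSD1) was not called, with means from 10043 in control to 10954 in trex8168 of the authors' deposited table.

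Under the SET stem SETD3 and SETD9 were listed, and neither is a main histone methyltransferase. SETD3, known for methylating a histidine of actin, went from 3116 in control to 3474 in trex0108, 3896 in trex4039, 3697 in trex5008 and 3641 in trex8168 in the authors' deposited table. All but the trex0108 value were called, with log2 fold changes of 0.30, 0.23 and 0.21. SETD9 rose in trex4039 with 0.41. Under the MLL stem the rows were MLLT3 and MLLT6, fusion partners of MLL and not methyltransferases; the MLL enzymes themselves were not analysed here. MLLT3 (AF9), a reader of acetylated histones in the super elongation complex, had means of 922.8 in control, 1007 in trex0108, 1241 in trex4039, 1174 in trex5008 and 1159 in trex8168 in the authors' deposited table. It was called in the last 3 with 0.40, 0.33 and 0.31, and the trex8168 value was the highest of any chromatin gene in that comparison. MLLT6 fell with -0.25 in trex4039 and -0.15 in trex5008 in the authors' deposited table.

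Among readers with a PHD finger, PHF12 fell and PHF20L1 and PHF6 rose in trex4039 and trex5008. PHF12 (chromosome 17, 27230819 to 27279397, hg19) is a partner of the SIN3 corepressor. Its means were 3581 in control, 3610 in trex0108, 2575 in trex4039, 2732 in trex5008 and 2754 in trex8168 in the authors' deposited table. The last 3 lay at 71.9%, 76.3% and 76.9% of control while trex0108 lay at 100.8%. The log2 fold changes were -0.45, -0.37 and -0.36, and the authors' deposited adjusted p were 3.6e-12, 4.98e-08 and 7.94e-07. PHF20L1, a reader of methylated lysine, went from 3276 in control to 4503 in trex4039 and 4187 in trex5008 in the authors' deposited table, with 0.44 and 0.34. PHF6, a nuclear protein mutated in an X-linked intellectual disability, went from 3123 to 4200 and 3667 in these groups of the authors' deposited table.

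The remaining PHF genes were mixed. Of the genes now called JADE, scaffolds of the HBO1 acetyltransferase complex, PHF16 rose with 0.26 in trex4039 and 0.19 in trex5008, PHF15 fell with -0.26 and -0.22, and PHF17 was not called in the authors' deposited table. PHF21B fell with -0.40 in trex4039 and -0.20 in trex5008. PHF3 was called in trex4039 alone (0.16) and PHF11 in trex5008 alone (0.26), in the authors' deposited table. PHF5A, which is a splicing factor of the SF3b complex and no histone modifier, was called as higher in trex4039, trex5008 and trex8168 with 0.24, 0.17 and 0.18 in the authors' deposited table. Among bromodomain proteins BRD1, also a scaffold of HBO1 complexes, fell in the same groups, from 3597 in control to 3154, 3116 and 3173 in the authors' deposited table. The BET gene BRD3 was not called. The acetyltransferase KAT6A rose in trex4039 with 0.20 (the authors' deposited adjusted p, 0.0393). Its main row spans 348608 bp and overlaps that of ANK1, so some of its reads are uncertain.

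ARID4A, a subunit of SIN3 complexes, rose with 0.23 in trex4039 and 0.16 in trex5008, and ARID5A, an RNA-binding protein, fell with -0.26 in trex4039 and -0.23 in trex5008. A set of 3 rows had means under 50: ARID4B and the second rows of KAT6A and PHF6. They span 8664, 7929 and 5252 bp, and the last pair lie inside the span of the gene's main row, so they are short pieces and not the level of the gene. ARID4B went from 24.5 in control to 9.83 in trex4039 and 8.64 in trex8168, both called as lower in the authors' deposited table. The second row of KAT6A went from 13.1 to 3.15 and that of PHF6 from 11.3 to 2.43 in the trex4039 column of the authors' deposited table, against the direction of the main rows. All 3 had no adjusted p in trex5008 and 2 of them none in trex8168.

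Levels between genes were compared per kilobase of transcript, using the length of the GENCODE 29 transcript with the longest coding sequence. On this scale the control level was highest for SMARCB1, at 4418 normalised counts per kb, followed by KDM1A at 3283, CBX3 at 3169, SMARCA4 at 2972 and BRD7 at 2760. SMARCA2 stood at 250.2 per kb, below its alternative SMARCA4. The lowest of the 55 rows with a mean of at least 50 was HDAC4, at 49.6 per kb. No spread is available for these levels, so neighbours in the order were not tested.

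The direction of a called chromatin gene in trex4039 and trex5008 went with the GC content of its transcript. Among the 55 rows with a mean of at least 50, the 25 higher in trex4039 had a median transcript GC content of 40.8% (36.5% to 49.7%) and the 17 lower ones 59.7% (54.6% to 64.9%), ranges that do not overlap. Over listed protein-coding rows with the same minimum mean, medians in trex4039 were 41.6% for 2690 higher and 60.2% for 1679 lower rows. Those ranges overlap, at 31.8% to 63.3% and 36.9% to 74.5%. A range widens with the number of rows, so ranges of sets so unlike in size cannot be compared. The medians lay close to those of the chromatin genes. In trex5008 the 23 higher genes had a median of 40.8% (36.5% to 51.8%) and the 17 lower ones 59.7% (54.6% to 64.9%). Listed protein-coding rows there had 41.4% (31.8% to 61.5%) for 2034 higher and 60.4% (41.2% to 74.1%) for 1410 lower rows. In trex8168 the 9 higher genes ran from 38.2% to 59.1%, and the lower pair, BRD1 and PHF12, had 54.6% and 55.2%. Listed protein-coding rows there had medians of 45.2% for 1021 higher and 57.5% for 254 lower rows. Median transcript length was 4934 bases for the higher and 4595 for the lower genes in trex4039. Across these 55 genes, which share libraries and are no replicates, Pearson's r between log2 fold change and GC content was -0.62 in trex0108, -0.88 in trex4039, -0.88 in trex5008 and -0.38 in trex8168. Over the 5919 listed protein-coding rows with a GC content and the same minimum mean it was -0.14, -0.82, -0.81 and -0.27. Without the minimum it was -0.44, -0.73, -0.80 and -0.19 over the 58 rows and -0.10, -0.78, -0.79 and -0.26 over 6372. A row is listed only where its smallest adjusted p is below 0.1, so these correlations and the GC trend are not those of all genes. How far the listing moved them was not tested.

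**Figure D4:**
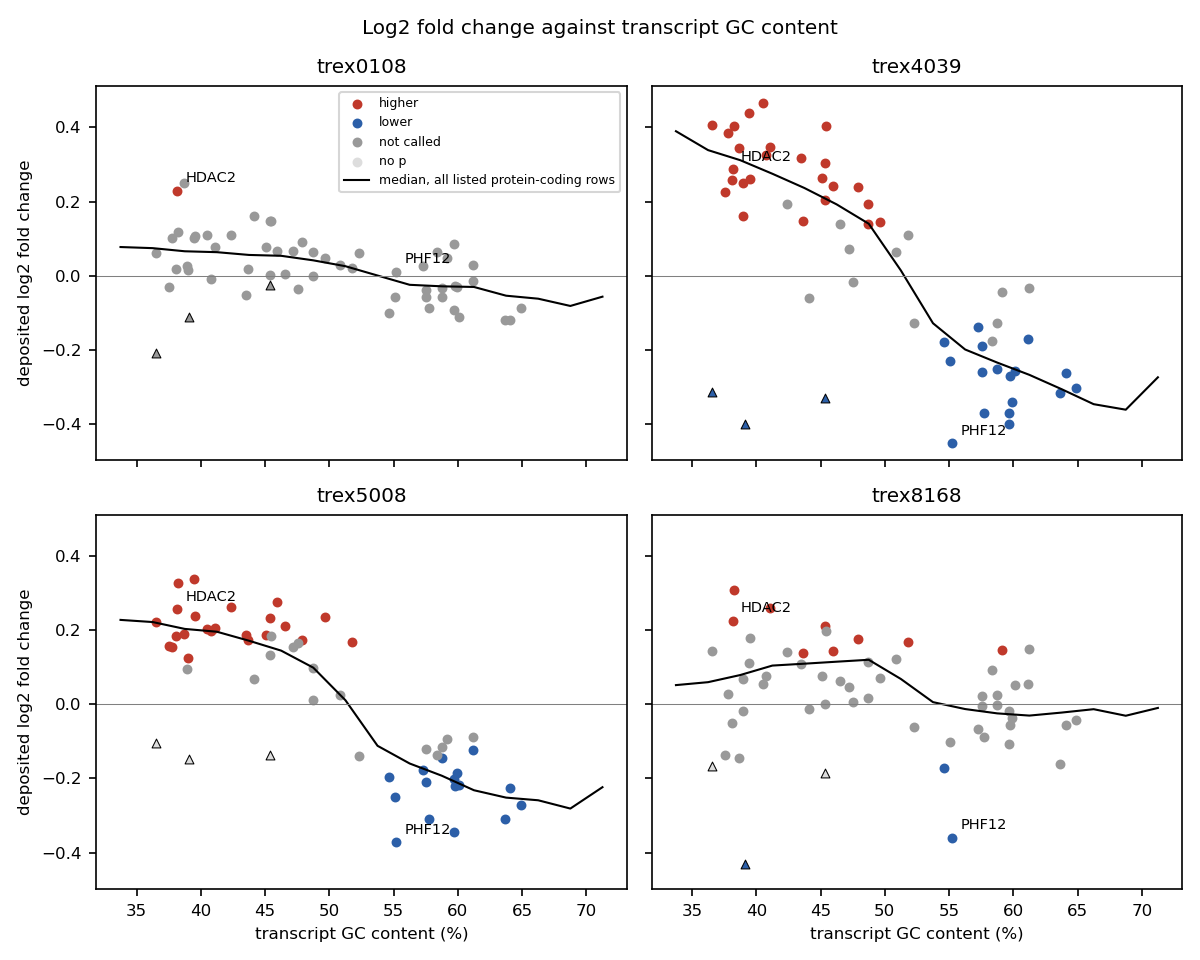
Deposited log2 fold change (vertical axis) against transcript GC content in percent (horizontal axis) for the chromatin genes reported here in each comparison, coloured by call, with triangles for the 3 rows with a mean under 50 and a black line for the median of all listed protein-coding rows in GC bins. In trex4039 the higher genes with a mean of at least 50 lie at or below 49.7% GC and the lower ones at or above 54.6%, and PHF12 lies well below the line in trex4039, trex5008 and trex8168.

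With the GC trend of all listed protein-coding rows subtracted, few values in trex4039 and trex5008 kept their size. Of the called genes with a mean of at least 50 in trex4039, PHF12 was the 1 that kept its direction and at least 0.5 of its fold change (2.38%), beside 16.6% of called protein-coding rows with a GC content and the same minimum mean. Without the minimum, 4 of 45 called chromatin rows did (8.89%), beside 18.7%; the other 3 are the rows with a mean under 50, whose GC content is that of the gene's main transcript. In trex5008, 4 of 40 did (10%, beside 16.0%): HDAC4, HDAC8, PHF12 and SMARCAL1. In trex8168, 7 of 11 did (63.6%, beside 81.6%): BRD1, HDAC2, MLLT3, PHF12, SMARCA1, SMARCAL1 and SMARCB1. PHF12 stood at -0.31, -0.25 and -0.36 after the subtraction. SIRT1 went from 0.47 to 0.18 in trex4039, HDAC6 from -0.37 to -0.16, CBX2 from -0.37 to -0.12, SMARCA4 from -0.34 to -0.090 and SMARCA2 from 0.14 to 0.026. What part GC content has in the fold changes was not tested.

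The promoters of higher and lower genes were more alike in base composition than their transcripts. RefSeq promoter sequences (GRCh38.p14) matched 44 of the 56 symbols. In the 250 bases before the start, the median GC content was 68.2% for 20 genes higher in trex4039 and 71.2% for 15 lower ones, and 65.6% for the promoters of listed protein-coding rows. The motif GGGCGG, a GC box, was found on either strand in 70.5% of the chromatin promoters, beside 67.7% of those of listed protein-coding rows and 42.3% of all 27305 RefSeq promoters. CCAAT was found in 29.5%, beside 34.4% and 33.0%, and TATAAA in 0 of 44, beside 5.22% and 11.1%. The promoters of HDAC2, the one gene called in all 4 comparisons, and PHF12, the gene with the lowest fold change, are shown. Capitals mark CCAAT and GGGCGG on either strand.
HDAC2: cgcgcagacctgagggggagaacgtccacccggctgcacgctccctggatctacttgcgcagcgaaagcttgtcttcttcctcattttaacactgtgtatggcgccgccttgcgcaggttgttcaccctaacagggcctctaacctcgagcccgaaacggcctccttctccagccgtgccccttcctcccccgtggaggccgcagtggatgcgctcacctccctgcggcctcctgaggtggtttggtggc
PHF12: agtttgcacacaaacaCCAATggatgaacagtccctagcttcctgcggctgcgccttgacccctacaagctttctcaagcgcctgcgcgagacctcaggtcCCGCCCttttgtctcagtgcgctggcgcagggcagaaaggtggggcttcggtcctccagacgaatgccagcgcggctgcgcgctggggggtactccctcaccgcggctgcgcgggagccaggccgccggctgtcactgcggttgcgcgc
The HDAC2 window lies at chr6:113971149-113971398 on the minus strand (GRCh38.p14), with a GC content of 63.2% against 38.2% in the transcript, 18 CpG sites and none of the 3 motifs. The PHF12 window lies at chr17:28951519-28951768 on the minus strand, with 66.0% against 55.2% in the transcript, 23 CpG sites, 1 CCAAT and 1 GGGCGG.

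Other chromatin genes, from a list of 182 symbols of partner subunits and enzymes outside these stems, gave 82 listed protein-coding rows. Of these 36 were higher and 31 lower in trex4039, 30 and 18 of 79 in trex5008, 11 and 5 of 80 in trex8168, and 3 and 0 of 82 in trex0108, by the authors' deposited table. These are 43.9% and 37.8%, 38.0% and 22.8%, 13.8% and 6.25%, and 3.66% and 0%, beside the background shares of 41.6% and 30.9%, 32.4% and 24.6%, 16.6% and 4.57%, and 5.52% and 0.228%. Acetyltransferases and bromodomain proteins outside KAT and BRD had 10 higher and 1 lower of 11 in trex4039 and 6 and 1 in trex5008 (90.9% and 9.09%, 54.5% and 9.09%, against the same background). With the GC trend subtracted, their median log2 fold change went from 0.29 to 0.062 in trex4039 and from 0.22 to 0.026 in trex5008. Partners in corepressor complexes such as NuRD, SIN3 and CoREST had 2 higher and 8 lower of 13 rows in trex4039 and 3 and 3 of 11 in trex5008. The lower rows in trex4039 include both listed NCOR1 rows, with means over all libraries of 16.8 and 33.4. A second row of GATAD2B, with a mean of 12.3, is among them too, so rows are not genes here. Polycomb rows outside CBX had 4 and 7 of 15 in trex4039 and 4 and 6 of 14 in trex5008. Their lower calls in trex4039 include JARID2 (mean of 9.71) and a second BCOR row (22.8), which was also lower in trex5008. In trex4039 the other lists had 2 and 2 of 5 (SWI/SNF partners), 5 and 6 of 13 (ISWI, INO80, SRCAP and NuA4 partners), 3 and 2 of 7 (partners of histone H3 lysine 4 methyltransferases), 4 and 3 of 10 (other histone methyltransferases), 3 and 0 of 3 (DNA methylation) and 3 and 2 of 5 (histone chaperones). Rows of ACTB, EP400 and CARM1 with means of 26.0, 20.3 and 37.4 are among the lower calls of these lists. HCFC1, a scaffold of histone H3 lysine 4 methyltransferase complexes, went from 16880 in control to 11488 in trex4039, 10609 in trex5008 and 13992 in trex8168, called as lower in each, in the authors' deposited table. The histone chaperone ASF1A rose from 1359 in control to 1774 in trex0108, 2053 in trex4039 and 1736 in trex5008 of the authors' deposited table. By the authors' deposited table ING3 of NuA4 rose from 1252 to 1891 in trex4039, 1610 in trex5008 and 1485 in trex8168, each called. Once the GC trend was subtracted, the trex4039 values were -0.24 for HCFC1, 0.18 for ASF1A and 0.22 for ING3, from -0.51, 0.55 and 0.56.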

How the data were processed

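The submitters' processing notes name DESeq2 1.14.1, DESeq, STAR 2.5.1b, Bowtie2 2.2.1, Cufflinks and bedtools, and the builds GRCh37 and hg19, without saying what each did. Which tool made the adjusted p, and whether counting used strand, are not stated in those sources. Per the file headers, the authors deposited a signal per gene, the mean of normalised counts in each group of 3 libraries and in all 15. The deposited log2 columns are the authors' fold changes of each target group over control, the deposited p-value columns hold their adjusted p, and the deposited call columns (-1, 0 or 1) are another, categorical value of the authors that was not used for calls. Values per library were not used, so depth is unknown and no model was fitted; a count test had been planned only for counts per library. Genes were found by symbol with pandas 2.3.3 in Python 3.11.15, and starts were shifted to count from 1.

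The members, families and lists were chosen with earlier results of these data known. Named genes are, per family and comparison, the highest and lowest called gene, those called in at least 3 comparisons, those called in opposite directions, those with a called size of at least 0.5, members of fixed functional subsets, and the largest called gene per other list; further genes were named after their values were seen. GC content came from the GENCODE 29 transcript with the longest coding sequence, for 6372 of 7447 protein-coding rows (85.6%). Its trend was a lowess curve (span 0.3, statsmodels 0.14.6), tested on simulated data. Alternatives were other thresholds (0.1 and 0.01), a mean of at least 50, ratios of means with pseudocounts of 1 and 10, centring, GC subtraction, and leaving out MLLT genes or rows that overlap others. Values of some single genes are not reported here, although counts over all rows include them.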

Additional observations from a re-analysis of the deposited data

How the results depend on the processing

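Counts of called genes stayed within 1.5 times in all 4 comparisons with a mean of at least 50 and without MLLT genes. With an adjusted p under 0.1 there were 3 higher genes in trex0108 (from 1) and 5 lower in trex8168 (from 3). Under 0.01 there were 11 lower in trex5008 (from 17), 3 higher in trex8168 (from 9) and 1 lower (from 3). Among rows that overlap no other listed row, an alternative added after seeing the data that leaves 25 of 58, there were 13 higher and 8 lower in trex4039, 12 and 8 in trex5008, and 5 and 1 in trex8168. Subtracting the GC trend and counting called genes with an unchanged sign and no less than 0.5 of the size, also added later, gave 0 higher and 4 lower in trex4039, 2 and 2 in trex5008, and 5 higher in trex8168; 3 of the 4 in trex4039 are the rows with a mean under 50.

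The median over all 58 rows went, with the GC trend removed, to 0.013 in trex0108, 0.0067 in trex4039, 0.0061 in trex5008 and -0.011 in trex8168. Centred on the listed protein-coding rows it was -0.0073, -0.017, 0.034 and -0.021. With a mean of at least 50 it was 0.11 in trex4039. With ratios of means it moved by less than 1.5 times in each comparison.

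Without the GC trend the sign of some called genes turned, and the cause was not tested. In trex4039 these were 13: ARID4A (-0.10), ARID5A (0.049), BRD7 (-0.092), CBX3 (-0.039), CHD1 (-0.064), HDAC2 (-0.033), KAT6A (-0.0063), KDM2B (0.063), KDM4B (0.10), PHF3 (-0.15), SIRT3 (0.016), SIRT6 (0.018) and SMARCA5 (-0.058). In trex5008 they were 10: ARID4A (-0.055), ARID5A (0.023), CHD1 (-0.026), CHD9 (-0.017), KDM4B (0.10), MLLT6 (0.049), PHF21B (0.0060), SMARCA4 (0.026), SMARCA5 (-0.081) and SMARCAD1 (-0.056). No call was tested under leaving out a replicate, since values per library were not used. No paired analysis was possible because the columns hold group means.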
